A study of Mus musculus with 2 samples.

Results

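The miR-130 and miR-301 family comprises 4 miRNA genes of the mouse, Mir130a, Mir130b, Mir301 (also written Mir301a) and Mir301b. They were found by gene identifier among the 1973 miRNA genes of the count tables, and all 4 were present and detected. Small RNA of the intestine was sequenced by microRNA-seq in 2 B6NCrl pups of postnatal day 0, born to the same mother and listed under a shared donor entry, with 1 library each. The labels give a size range below 30 and name no gut segment, and the sex was not collected. Both pups belong to the same untreated group, called here pup 1 and pup 2, so the data give levels and the spread between littermates and hold no comparison of conditions.

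A miRNA is cut from a hairpin transcript and guides an Argonaute protein to mRNAs, which pair mainly with its seed, bases 2 to 8 of the mature strand. Genes with the same seed can therefore act on overlapping sets of mRNAs. Members of this family are known for repressing PPARG mRNA in adipocyte precursors and in vascular cells, and human miR-130a for repressing the homeobox genes GAX and HOXA5 in endothelial cells.

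The family's 3p strands listed here share their seed, in capitals, and part ways further along the strand, which is why both arms are printed. Of Mir301b only the 5p strand is printed, since the RefSeq sequences used here hold no miR-301b-3p. Sequences are those of RefSeq on GRCm38.p6, 5′ to 3′.
miR-130a-3p: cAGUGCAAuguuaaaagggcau
miR-130b-3p: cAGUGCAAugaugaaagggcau
miR-301a-3p: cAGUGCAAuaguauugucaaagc
miR-130a-5p: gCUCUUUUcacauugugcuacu
miR-130b-5p: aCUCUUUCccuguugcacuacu
miR-301a-5p: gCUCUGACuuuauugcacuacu
miR-301b-5p: gCUCUGACuagguugcacuacu
The sequence of miR-130a-3p differed from that of miR-130b-3p at 2 of 22 bases, U11A and A13G, counted from 1 at the 5′ end with the base of miR-130a-3p first. Against miR-301a-3p, 12 of 22 bases of miR-130a-3p were identical, and the first 9 bases were. On the 5p side the seeds of miR-301a and miR-301b were the same, and those of miR-130a and miR-130b were not. The hairpin of Mir301b also holds the 7 bases of the 3p seed.

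The counts are per gene, so the arms cannot be separated, and how far near-identical hairpins compete for reads bears on every value. Reads that map to more than 1 place were assigned to no gene. The longest run that a member shares with any of the other 1004 RefSeq hairpins was 17 bases for Mir130a and 16 bases for each of Mir130b, Mir301 and Mir301b. Of 276 detected genes with a hairpin in the table, 58 share a run of 20 bases or more with another hairpin. The closest pair within the family is shown with its longest common run in capitals.
Mir301: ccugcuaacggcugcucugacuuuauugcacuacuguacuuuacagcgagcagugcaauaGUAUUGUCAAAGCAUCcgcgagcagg
Mir301b: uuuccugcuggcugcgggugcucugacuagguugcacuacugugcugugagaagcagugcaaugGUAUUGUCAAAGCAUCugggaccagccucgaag
The 23 bases of miR-301a-3p matched the Mir301b hairpin with 1 mismatch, while miR-130a-3p and miR-130b-3p needed 2 mismatches to match each other's hairpin. Whether the alignment tolerated such mismatches is not given in the sources used here, so the split between Mir301 and Mir301b is the least certain of the values that follow.

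The family lies at 3 places in the genome (GRCm38, 1-based). Mir130a (ENSMUSG00000065484) lies at chr2:84741115-84741178 on the minus strand, where no gene is annotated in that direction, with no other miRNA gene within 10 kb. Mir301 (ENSMUSG00000065589) lies at chr11:87113004-87113089 on the plus strand in an intron of Ska2, which encodes a subunit of the spindle and kinetochore complex. Mir130b (ENSMUSG00000065572) at chr16:17124061-17124142 and Mir301b (ENSMUSG00000076288) at chr16:17124400-17124496 lie on the minus strand, 257 bases apart. Both are intronic in 2610318N02Rik, of which 3 of 8 annotated transcripts span the pair, and no annotated exon of that gene lies between them.

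Sequencing gave 6375694 reads for pup 1 and 8373497 for pup 2, and 3567658 and 4683939 of them fell on miRNA genes in the annotated direction. Levels are counts per 1000000 of these counts (CPM), and every ± is the SD over the 2 pups. Genes with 10 counts or more in both libraries are called detected, and 314 genes reached this. The tissue label fits its epithelial markers, with 8 of 8 such miRNA genes detected at 28.4% of counts in pup 1 and 33.0% in pup 2. The liver marker, though detected, took 0.00289% and 0.00124%. Of the other marker lists, smooth muscle took 18.1% and 15.0% and endothelium 5.46% and 4.98%. Nerve took 0.107% and 0.103%, with Mir124a-1 at 0. Skeletal and heart muscle, leukocytes and erythroid cells each took less than nerve.

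Mir130a was by far the most abundant member in both pups, followed by Mir130b, Mir301 and Mir301b. In bulk tissue, fewer cells of a type and less RNA per cell cannot be told apart. Pup 1 gave 39771 counts of Mir130a and pup 2 gave 51560, equal to 11148 and 11008 CPM, or 11078 ± 98.9 CPM (n = 2). Mir130b, its closest relative in sequence, had 10540 and 14006 counts, which are 2954 and 2990 CPM, or 2972 ± 25.4 CPM. For both genes the pups lay within 1% of their mean in these CPM (coefficients of variation of 0.892% and 0.854%). This evenness depends on the scaling. With the TMM scaling described below, Mir130a had 10984 and 11172 CPM and Mir130b 2911 and 3035 CPM.

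The Mir301 genes were lower and less even between the pups. Mir301 reached 1819 counts in pup 1 and 2629 in pup 2, equal to 510 and 561 CPM, or 536 ± 36.4 CPM. Mir301b had 83 and 153 counts, which are 23.3 and 32.7 CPM, or 28.0 ± 6.65 CPM. The exact Poisson 95% intervals of Mir301b were 18.5 to 28.8 CPM in pup 1 and 27.7 to 38.3 CPM in pup 2. Such intervals take in only the error of counting, and PCR copies are not independent molecules. No 2 members overlapped in level in either pup, and the order was the same in both. Adapter ligation favours some small RNAs over others, and the SD over pups does not measure this bias between genes.

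A small RNA read covers a whole mature strand, so levels were not divided by length. Divided by hairpin length, the order of the levels stayed the same, with 17309 ± 154 CPM per 100 bases for Mir130a, 3625 ± 31.0 for Mir130b, 623 ± 42.3 for Mir301 and 28.8 ± 6.85 for Mir301b.

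**Figure D1:**
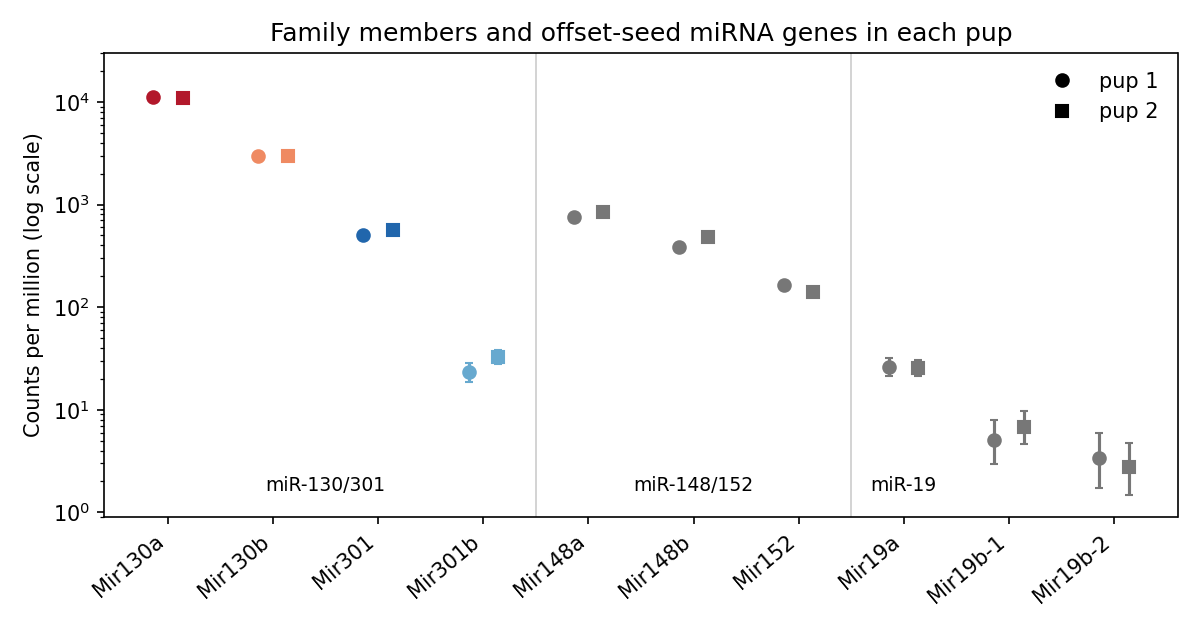
Level in CPM (log axis) of the 4 members and of 6 genes with an offset seed in pup 1 (circles) and pup 2 (squares), with exact Poisson 95% intervals as bars. The members run from 11078 CPM for Mir130a down to 28.0 CPM for Mir301b, with the pups closest together for Mir130a and Mir130b among the members and farthest apart for Mir301b.

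Together the members took 1.46% of miRNA counts in each pup, with 52213 counts in pup 1 and 68348 in pup 2 (mean 1.461% ± 0.00305). Mir130a made up 76.2% of the family's counts in pup 1 and 75.4% in pup 2, with exact binomial 95% intervals of 75.8 to 76.5% and 75.1 to 75.8%. The share of Mir130b was 20.2% and 20.5%, that of Mir301 3.48% and 3.85%, and that of Mir301b 0.159% and 0.224%. The composition of the family was thus nearly the same in the littermates, with the Mir301 genes taking slightly more of it in pup 2. The clustered pair Mir130b and Mir301b gave 0.300% ± 0.00320 of miRNA counts, nearly all of it Mir130b.

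Other genes with the same 3p seed were listed at 0. Mir130c, Mir6341 and Mir6389 had 0 counts in both pups, which with the usual 1-sided limit of 3 counts allows up to 0.841 CPM in pup 1 and 0.640 CPM in pup 2. Their annotated strands, seed in capitals, are given because they carry the family's seed without any of its counts.
miR-130c: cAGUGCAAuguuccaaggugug
miR-6341: cAGUGCAAugauauugucacuau
miR-6389: cAGUGCAAuguuaaacuuugc
Mir721 has this seed too and was not analysed here. Counts were also summed over genes that RefSeq lists with the same seed, in 179 partly overlapping groups. Seeds with a single counted gene were left out of these groups. The group of this seed ranked 16 with 1.459% ± 0.00371, from Mir130a, Mir130b and Mir301 alone. Some groups above it repeat genes through their other arm, as Mir26b does at ranks 9 and 10, so this is no rank among all seeds. These sums count both arms of each gene and lack reads that map to several places. The sum of the family's seed lacks Mir301b, whose 3p strand has no entry in the RefSeq sequences used here.

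Among all detected genes, Mir130a ranked 22 of 314 by mean CPM, Mir130b 42, Mir301 99 and Mir301b 231. Reads that map to several places are left out, so genes with near-identical copies can rank too low beside the members. The most abundant gene, Mir143, a miRNA of mesenchymal cells, had 161103 ± 21783 CPM, 14.5-fold above Mir130a. The genes closest in level to Mir130a were Mir375, an endocrine cell miRNA, at 11291 ± 86.5 CPM and Mir194-2, an epithelial one, at 11483 ± 1483 CPM. Likeness here is the difference in mean log2(CPM + 1) over the 2 libraries, which was 0.03 for Mir375 and 0.05 for Mir194-2. Mir375 was higher than Mir130a in both pups, and Mir194-2 was higher only in pup 2, so its range spans that of Mir130a. Mir194-2 has a mature strand identical to one of Mir194-1, so its level is a lower limit. The next genes below, Mir23a with 8956 ± 1062 CPM and the Hox cluster gene Mir10b with 8771 ± 1939 CPM, were lower than Mir130a in both pups.

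Mir130b stood between Mir15a, at 3308 ± 98.5 CPM, and Mirlet7b, at 2889 ± 50.1 CPM, in both pups. Its other neighbours, Mir182 of secretory and sensory cells (3482 ± 1025 CPM) and the imprinted Mir379 (2942 ± 557 CPM), each lay above it in 1 pup and below it in the other. The 4 neighbours of Mir301 were close to it in mean level, but each was higher than it in pup 1 and lower in pup 2. They were Mir30b, Mir337, Mir467d and the squamous epithelial Mir205, with means of 523 to 557 CPM and ranges that all overlapped its own. The same held for Mir301b and its neighbours Mir129-2, Mir377, Mir19a and Mir6236, which had means of 25.3 to 28.4 CPM. Mir129-2 has a mature strand identical to one of Mir129-1, so its level is a lower limit.

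**Figure D2:**
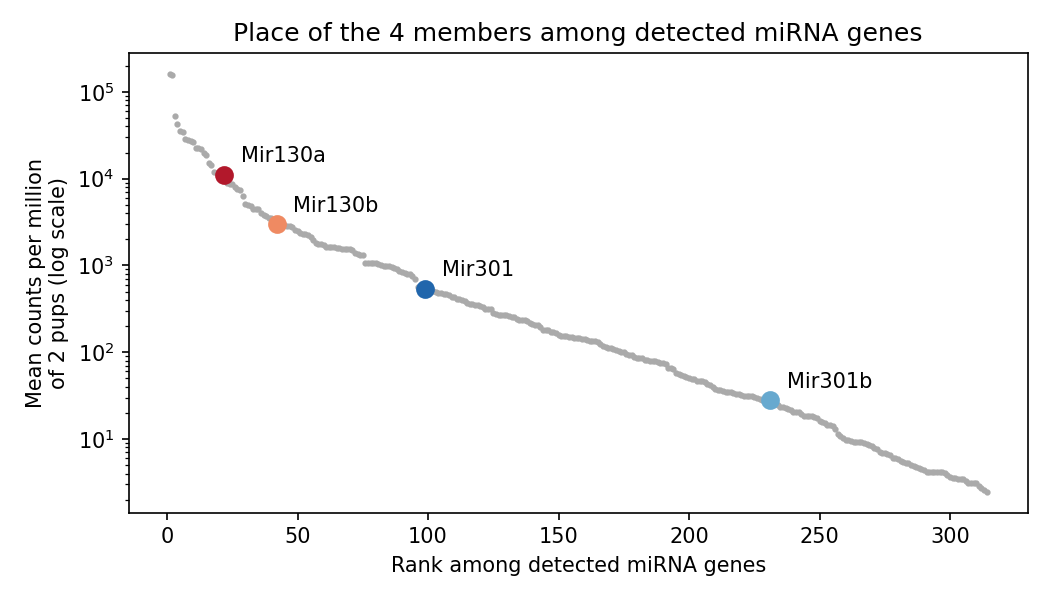
Mean CPM of the 2 pups (log axis) against rank for the 314 detected miRNA genes, with the 4 members in colour. The members lie at ranks 22, 42, 99 and 231.

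Within each library, every pair of members differed in counts. Log2 ratios of pairs are the estimates of the edgeR fit, and their ± is the SD of the log2 ratios of counts over the pups. The estimate can depart slightly from the mean over pups, as with 8.62 against 8.65 for Mir130a over Mir301b. Mir130a exceeded Mir130b 3.77-fold in pup 1 and 3.68-fold in pup 2, a log2 ratio of 1.90 ± 0.03 (edgeR quasi-likelihood, adjusted p = 1.50e-31). Their binomial intervals, 3.69 to 3.86 and 3.61 to 3.75, overlapped. Mir130a exceeded Mir301 21.9-fold in pup 1 and 19.6-fold in pup 2 (log2 4.37 ± 0.11, edgeR adjusted p = 1.02e-67). Here the intervals, 20.9 to 22.9 and 18.9 to 20.4, did not overlap. Whether a ratio differed between the pups was not tested.

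Mir130b exceeded Mir301 5.79-fold in pup 1 and 5.33-fold in pup 2 (log2 2.47 ± 0.09, edgeR adjusted p = 3.78e-37). Mir301 exceeded Mir301b 21.9-fold and 17.2-fold (log2 4.26 ± 0.25, edgeR adjusted p = 4.90e-59). Mir130b exceeded Mir301b, its neighbour in the same intron, 127-fold in pup 1 and 91.5-fold in pup 2, with intervals of 102 to 160 and 78.1 to 108 that overlap. This clustered pair was farther apart than 4 of the other 5 pairs. The farthest pair, Mir130a over Mir301b, stood at 479-fold and 337-fold (log2 8.62 ± 0.36, edgeR adjusted p = 1.15e-95).

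Unequal counts were the rule for genes that share a seed. Of 171 pairs of detected genes with a common seed, 94.7% passed the same test, so the 6 of 6 member pairs that passed are near the background. Mir301b was paired with Mir130a and Mir130b as a family member, since RefSeq lists no miR-301b-3p. Among the 171, 18 pairs have an identical mature strand, and 14 of those passed. Reads that fit both copies were assigned to neither gene, and how far such losses widen the background ratios was not tested. The median size of the log2 ratio was 4.32 over the 6 member pairs and 2.45 over all 171 pairs. More than 8-fold apart were 4 of the 6 member pairs and 69 of the 171 pairs (40.4%). The pairs share genes, and each pair has 1 residual degree of freedom, so its spread is pooled over pairs and the small p-values rest on that pooling. With 2 pups alone, an exact sign-flip permutation could not go below p = 0.5. With a minimum of 1 count over both libraries together, the largest adjusted p of a member pair was 9.10e-05 (edgeR), for Mir130a over Mir130b.

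**Figure D3:**
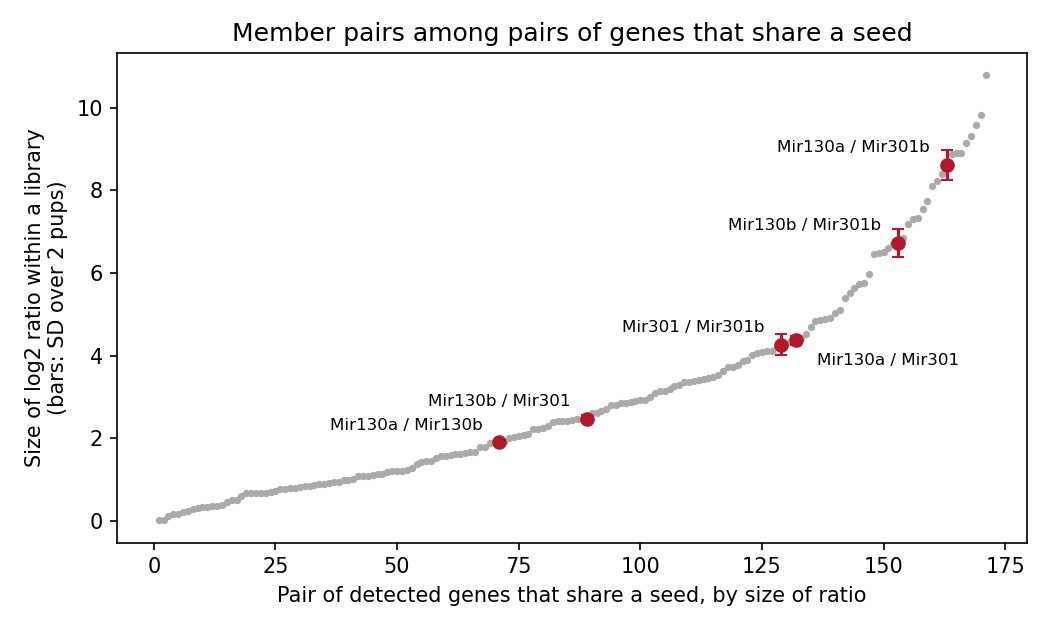
Size of the log2 ratio within a library for 171 pairs of detected genes that share a seed (grey, sorted) and for the 6 member pairs (red, bars are the SD over 2 pups). The member pairs range from 1.90 for Mir130a and Mir130b to 8.62 for Mir130a and Mir301b.

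Between the libraries of the littermates Mir130a and Mir130b differed by a few percent and Mir301 by about as much as the typical gene. The point estimate of Mir301b was larger than that of most genes, but its interval took in differences smaller than the typical one. The libraries were compared gene by gene by an exact binomial test (2-sided) whose null share comes from library sizes scaled by TMM (trimmed mean of M-values), with p-values adjusted over 314 genes. The test sets 1 library against the other with no replicate of either, so its p-values and intervals cover counting error only and cannot tell a difference between pups from one between library preparations. Mir130a had 10984 TMM-scaled CPM in pup 1 and 11172 in pup 2, a log2 ratio (pup 1 over pup 2) of -0.02 with a 95% interval of -0.04 to -0.01 (exact binomial adjusted p = 0.0280). Scaled by total counts, the ratio of Mir130a turned to 0.02 (exact binomial adjusted p = 0.129), so no direction can be given for it. Mir130b had 2911 and 3035, a log2 ratio of -0.06 (-0.10 to -0.02, exact binomial adjusted p = 0.00387), and with total counts it was -0.02 and did not pass (adjusted p = 0.527, exact binomial).

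Both Mir301 genes had a ratio below 0 and passed the test under each scaling tried. Mir301 had 502 TMM-scaled CPM in pup 1 and 570 in pup 2, a log2 ratio of -0.18 (-0.27 to -0.09, exact binomial adjusted p = 0.000134). Mir301b had 22.9 and 33.2, a log2 ratio of -0.53 (-0.94 to -0.14, exact binomial adjusted p = 0.0196). At 83 and 153 counts Mir301b has the widest interval of the members, and its bounds reach from a 1.10-fold to a 1.91-fold excess in pup 2.

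With TMM scaling all 4 members passed this test of counting error with a ratio below 0, and with total counts only Mir301 and Mir301b did. The TMM count stands against a background of 41.1% of genes that passed in either direction, 19.7% that were higher and 21.3% that were lower in pup 1. Of 129 genes that passed, 62 were higher and 67 lower in pup 1 (48.1% higher). The split was 74 to 53 with total counts (58.3% higher) and 46 to 84 with upper-quartile scaling (35.4% higher). The median log2 ratio was -0.12 over the 4 members and 0.00 over all 314 genes, and the median size was 0.12 and 0.18. By size of difference, 10.5% of genes differed less than Mir130a, 22.3% less than Mir130b, 49.7% less than Mir301 and 93.3% less than Mir301b. The interval of Mir301b reaches -0.14, smaller in size than the median of 0.18. Mir19b-1, an offset-seed gene with 18 and 32 counts, differed more than 92.4% of genes and did not pass, so this share does not allow for depth. Cell type markers moved between the libraries too, with the 2 smooth muscle genes at 18.1% of counts in pup 1 and 15.0% in pup 2 and the epithelial genes at the shares given earlier. Their part in the members' differences was not tested.

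**Figure D4:**
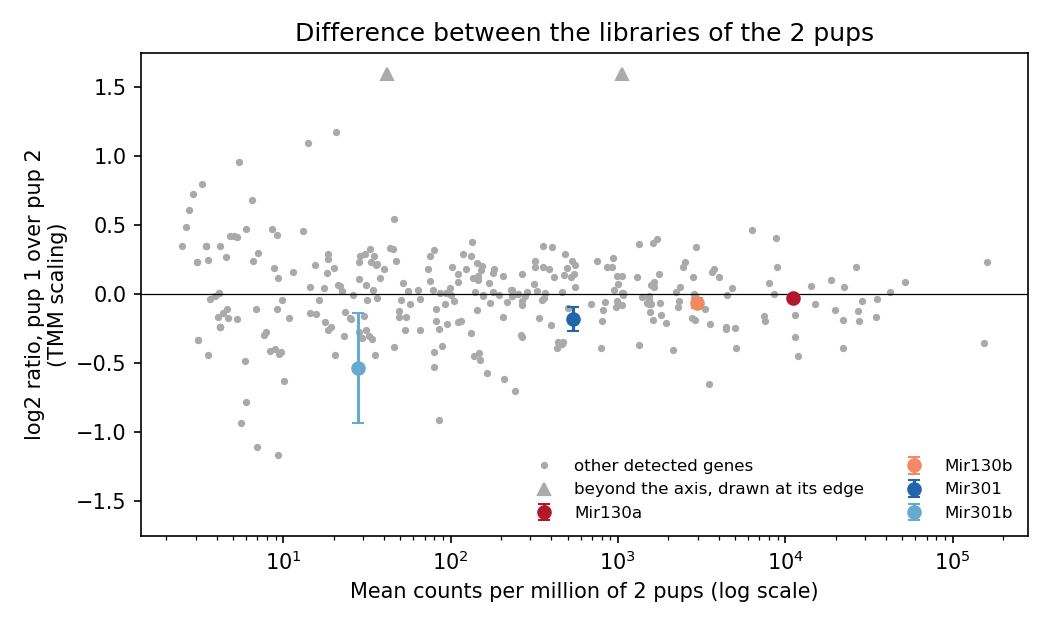
Log2 ratio of TMM-scaled counts, pup 1 over pup 2, against mean CPM (log axis) for 314 detected genes (grey), with the 4 members in colour and exact binomial 95% intervals as bars. Mir130a and Mir130b lie close to 0, while Mir301 (-0.18) and Mir301b (-0.53) lie below it, and 2 genes beyond the axis are drawn at its edge.

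Some miRNAs carry 6 of the 7 seed bases shifted by 1 position, and their targets can overlap in part with those of the family. Those of the miR-148 and miR-152 family and of the miR-19 genes are printed with the shared 6 bases in capitals.
miR-148a-3p: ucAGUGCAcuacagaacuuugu
miR-148b-3p: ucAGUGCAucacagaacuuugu
miR-152-3p: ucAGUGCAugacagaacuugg
miR-19a-3p: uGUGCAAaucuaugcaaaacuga
miR-19b-3p: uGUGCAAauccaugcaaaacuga
The 4 members had 14614 ± 30.5 CPM in sum, against 1390 ± 117 CPM for Mir148a, Mir148b and Mir152 together, an 11.2-fold excess in pup 1 and a 9.91-fold one in pup 2. Mir130a and Mir130b each exceeded Mir148a, the highest of these at 803 ± 59.1 CPM, in both pups, while Mir301 (536 CPM) lay between Mir148a and Mir148b (435 ± 74.1 CPM). Mir152 had 152.2 ± 16.3 CPM. These sums were set side by side and not tested.

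The miR-19 genes, from clusters known for activity in proliferating cells, had 35.0 ± 0.332 CPM in sum. Mir19a had 26.0 ± 0.515 CPM, next to Mir301b in rank, Mir19b-1 had 5.94 ± 1.26 CPM and Mir19b-2 had 3.07 ± 0.416 CPM. The last 2 genes encode the same miR-19b-3p, and reads that fit both were assigned to neither, so their counts are lower limits. The printed miR-19a-3p is nearly identical to miR-19b-3p, so whether the alignment tolerated mismatches bears on the count of Mir19a too. In the comparison of the libraries, Mir148a (-0.19, exact binomial adjusted p = 3.31e-07) and Mir148b (-0.39, exact binomial adjusted p = 8.19e-15) had ratios below 0 that passed, again beyond counting error only and with no replicate of either library. Mir152 (0.18) and the 3 miR-19 genes (-0.48 to 0.23) did not pass the test, and the low counts of the miR-19 genes leave their intervals wide. Of these 6 genes, Mir19a alone, with a log2 ratio of 0.00, had a ratio nearer to 0 than Mir130a or Mir130b.

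No read was counted on the opposite strand of any member in either pup, although 3.42% of reads in miRNA genes were on the opposite strand in pup 1 and 3.33% in pup 2. A count of 0 allows up to 3 counts at each gene.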

How the data were processed

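Small RNA sequencing was done by the authors on 2 libraries, 1 per pup. The deposited tables hold unnormalized counts of reads for each miRNA gene, from mm10 with the GENCODE M4 annotation, per the labels and the text files deposited beside them. The aligner and the counter are not given in the sources used here. Per library, the table has counts on either strand, on the annotated strand (used here) and on the opposite strand, as their sums show. Of all reads, 30.0% ± 0.382 mapped to several places, 9.75% ± 0.562 were unmapped and 2.32% ± 0.127 mapped once outside miRNA genes (SD, n = 2), and these totals stayed out of library sizes and tests.

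From these counts CPM, shares with exact binomial intervals and exact Poisson intervals were computed. Symbols and places came from GENCODE M21 (1894 of 1973 genes matched, the other 79 held 0 counts), and sequences from RefSeq, whose table held 276 of the 314 detected genes. Libraries were compared by an exact binomial test (scipy 1.17.1), and pairs within libraries by edgeR 4.0.16 with the pup as a block. The pairs were all those sharing a seed in RefSeq and the 6 member pairs. Both tests were Benjamini-Hochberg adjusted with a threshold of 0.05. The pairing is by animal, since both genes of a pair are read from the same library. DESeq2 1.42.0, limma 3.58.1, other scalings, count minimums of 1 and 100, counts that ignore strand and other denominators were alternatives. Tests were tried on simulated counts, with Poisson error for the binomial test and independent pairs for edgeR. Those settings leave out, respectively, spread between real libraries and genes shared by pairs, so they do not vouch for the p-values here. Named genes were the members, genes with their seed or an offset seed, genes within 10 kb, the 2 detected genes next above and below each member in level and the highest gene. Members, lists and tests were chosen with earlier results of these data known. The p-values of the binomial test cover counting error only, and those of the pair test the spread between these 2 libraries, pooled over pairs.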

Additional observations from a re-analysis of the deposited data

How the results depend on the processing

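The order of the 4 members and the direction of all 6 pair ratios were the same under each alternative that gave a value. The pair ratios stayed past the threshold in each alternative fit, among them a fit with no replicate block and one, added after seeing the data, with each gene in a single pair. Without either replicate, where no test could be made, log2 ratios ranged from 1.88 to 1.92 for Mir130a over Mir130b and from 8.40 to 8.90 for Mir130a over Mir301b. Of 171 same-seed pairs, 162 differed with the replicate block and 163 without it, and the block changed no member's call. That count was 160 with DESeq2, 163 with limma and 208 of 263 pairs with a minimum of 1 count over both libraries together. Levels moved by construction with the denominator. Over all reads they were 6198, 1663, 299.6 and 15.6 CPM for Mir130a, Mir130b, Mir301 and Mir301b, and the family share was 0.818%. With strand ignored Mir130a had 10704 and Mir130b 2872 CPM and the family 1.41%. Without Mir143 in the denominator the share was 1.74%. Per 100 bases of hairpin the levels were 17309 for Mir130a, 3625 for Mir130b and 623 for Mir301. Among the members' library differences, those of Mir130a and Mir130b depended on scaling or filter. The log2 ratio of Mir130a was 0.018 with total counts and -0.014 with the minimum of 1 count (exact binomial adjusted p = 0.486), and that of Mir130b was -0.017 with total counts, all short of the threshold. Mir301b, with 83 counts in pup 1, gave no value at a minimum of 100 counts. Its depth limits its ratios most. The count of same-seed pairs was not refitted without a pup, since no residual degrees of freedom would be left.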
